A study of Mus musculus with 9 samples.

Results

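Leukemic splenic B cells of Eµ-TCL1 mice were compared directly with those of Eµ-MTCP1 mice, gene by gene. The members were the 6 leukemia libraries of a series of 9, namely 3 Eµ-TCL1 libraries (mice C1594, B4437 and B4376) and 3 Eµ-MTCP1 libraries (mice Z2641, Z2606 and Z2551), taken by their labelled genotype. The other 3 libraries (wildtype mice Z2785, Z2755 and Z2754) served as a reference level only. Eµ-TCL1 mice carry human TCL1A, and Eµ-MTCP1 mice carry human MTCP1 (the p13 protein), in both cases behind an immunoglobulin heavy chain promoter and the Eµ enhancer, which drive a transgene in B cells. All 9 mice bore the strain label C57/BL6NTac, and wildtype mice were littermates without human MTCP1. B cells were enriched from spleen by removal of other cells, and the leukemic mice were matched for age and had a high disease load. The age and sex of each mouse are not given in the sources used here. The Eµ-MTCP1 mice descend from 1 founder (line Z36), whose multi-copy transgene lies in an intron of Fam168a on chromosome 7. The Eµ-TCL1 mice are a separate transgenic line. On both sides of the contrast, therefore, line and transgene cannot be told apart. Each library is 1 mouse, and the only lane that differed in the file headers was that of wildtype Z2755.

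TCL1A and MTCP1 belong to a small family of beta-barrel proteins that bind the pleckstrin homology domain of AKT and raise its kinase activity. AKT lies downstream of the B cell receptor and phosphatidylinositol 3-kinase, a pathway on which chronic lymphocytic leukemia cells depend. Enforced expression of TCL1A in mouse B cells is a widely used model of that disease, in which CD5-positive B cells accumulate. A direct contrast asks where leukemias started by the one gene differ from those started by the other.

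RNA was amplified from full-length cDNA, sequenced, and given as estimated read counts per transcript, which were summed to genes. The libraries held 6447542 to 8033303 assigned reads. Values below are counts per 1e6 reads (CPM) after edgeR's TMM scaling, in mouse order C1594, B4437, B4376 for Eµ-TCL1 and Z2641, Z2606, Z2551 for Eµ-MTCP1, and 3 reads, the smallest level read as present, were 0.326 to 0.496 CPM. A log2 fold change is Eµ-TCL1 minus Eµ-MTCP1, with its standard error (SE), from edgeR's quasi-likelihood test with Benjamini-Hochberg adjustment (adjusted p) over all genes tested. With bulk RNA, fewer cells of a type and less RNA per cell cannot be told apart. All 14 B lineage markers had over 3 reads in each leukemia, and none passed an unadjusted p under 0.05. A pair of libraries stood apart. Eµ-MTCP1 mouse Z2641 had the highest summed neutrophil markers (2783 CPM, other leukemias 31.8 to 313 CPM) and mitochondrial reads (8.02%, others 3.53% to 4.58%), and Eµ-TCL1 mouse B4376 had the highest NK and T cell marker sums (134 and 191 CPM). Of 16 T cell markers 15 had over 3 reads in at least 1 leukemia and Themis had no read in any, of 7 megakaryocyte and platelet markers 3 had over 3 reads and Ppbp none, and of 11 stromal and endothelial markers 6 had none (Kdr, Tek, Col1a2, Pdgfra, Dcn and Lum). No summed marker list separated the groups (exact two-sided permutation p of 0.4 to 1, where 3 against 3 cannot go below 0.1). Xist, the X-inactivation RNA, was high in 1 mouse of each group (C1594, Z2641 and wildtype Z2785), so the groups held like numbers of such mice.

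The transgenes matched the labels. Human TCL1A was at 3702, 5825 and 5457 CPM in Eµ-TCL1 leukemias and at 1.65, 1.42 and 2.95 CPM in Eµ-MTCP1 leukemias, a log2 fold change of 11.28 ± 0.60 (edgeR adjusted p = 1.32e-05). Human MTCP1 was at 288, 686 and 619 CPM in Eµ-MTCP1 leukemias and at 0, 0.246 and 0 CPM in Eµ-TCL1 leukemias, at least 1324-fold higher against a floor of 3 reads (edgeR adjusted p = 1.32e-05, log2 fold change -12.30 ± 0.63). Neither transgene overlapped between the groups, and Z2641 had the least human MTCP1 of its group. The few TCL1A reads outside Eµ-TCL1 mice were also present in wildtype mice, at 1.66, 0.326 and 1.36 CPM. Of the mouse family, Tcl1 and Tcl1b1 to Tcl1b5 had no read in any library. Cmc4, the mitochondrial protein gene that shares its first exon with Mtcp1, was at 1.26, 1.35 and 0.968 CPM against 0.826, 1.28 and 0.82 CPM (log2 fold change 0.28 ± 0.62, edgeR adjusted p = 0.957). It did not separate the groups, at a level of few reads.

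Across the transcriptome the leukemias differed at few genes beyond the spread between mice. Of 11163 genes tested, 4 (0.0358%) passed an adjusted p under 0.05, 2 higher in Eµ-TCL1 (0.0179%) and 2 lower (0.0179%), and the 2 transgenes were among them. With DESeq2 71 passed, 38 higher and 33 lower, and with no expression filter 10 did. The other 2 were Neto2, higher in Eµ-TCL1, and Arhgef17, higher in Eµ-MTCP1. At an unadjusted p under 0.05, 715 genes (6.41%) were called, 362 higher (3.24%) and 353 lower (3.16%). When libraries were scaled by their total alone, the split was 532 higher and 249 lower, and the share of each direction therefore moved with the scaling. The groups did not overlap for 1231 genes (11.0%), with Eµ-TCL1 above for 603 (5.40%) and below for 628 (5.63%). At an unadjusted p under 0.001 with a log2 fold change past 2 there were 22 genes (0.197%), 13 higher (0.116%) and 9 lower (0.0806%). The middle 90% of genes lay between log2 fold changes of -0.98 and 0.97, around a median SE of 0.33. In what follows, "called" means an unadjusted p under 0.05, and a gene called so but not past the adjusted threshold is given as a description.

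**Figure D1:**
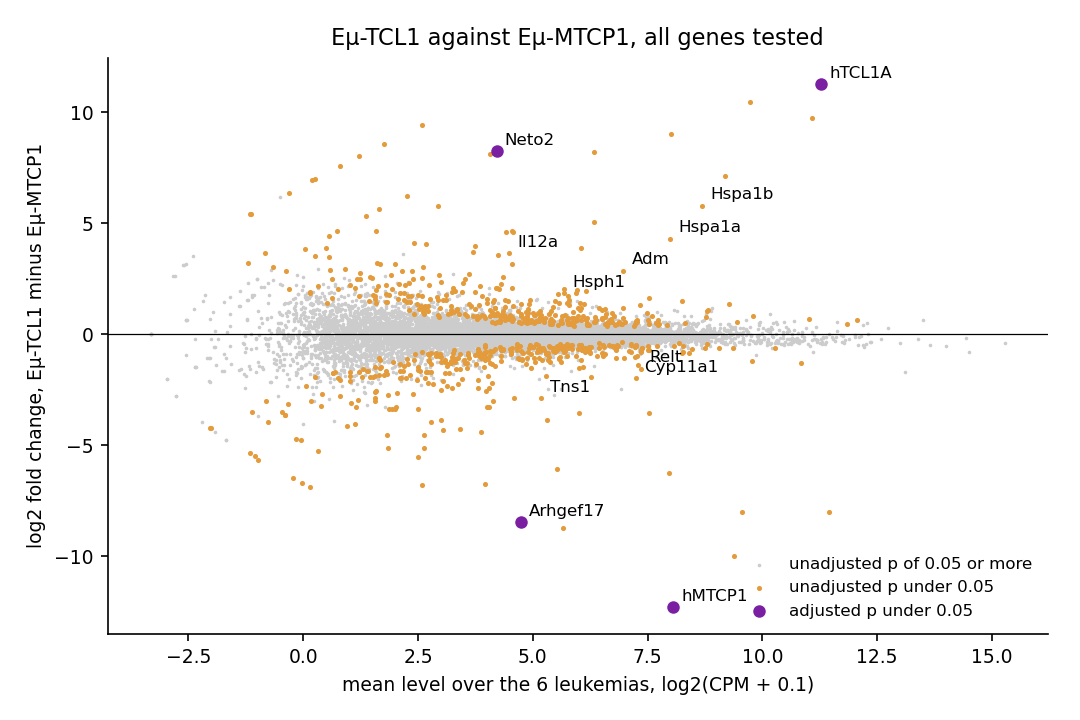
Log2 fold change (Eµ-TCL1 minus Eµ-MTCP1) against the mean level over the 6 leukemias, log2(CPM + 0.1), for all 11163 genes tested, with one point per gene. Purple points are the 4 genes at an adjusted p under 0.05, orange points those at an unadjusted p under 0.05.

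The mouse gene that passed the adjusted threshold with higher levels in Eµ-MTCP1 lay near the host gene of the transgene. Arhgef17 (ENSMUSG00000032875, chr7:100869752-100932107, minus strand, GRCm38) codes for a guanine nucleotide exchange factor of small GTPases. It was at 50.9, 62.5 and 45.8 CPM in Eµ-MTCP1 leukemias, 0, 0.123 and 0.277 CPM in Eµ-TCL1 leukemias and 0.453, 0 and 0 CPM in wildtype B cells. Only Eµ-MTCP1 mice therefore held more than a few reads of it, at least 132-fold more than Eµ-TCL1 mice (log2 fold change -8.46 ± 0.75, edgeR adjusted p = 0.00135). Arhgef17 passed the adjusted threshold in all 21 alternative analyses. It lies 28.1 kb beyond the end of Fam168a (chr7:100706635-100841656, plus strand). Between the pair lies Relt (chr7:100845847-100863446, minus strand), 4.19 kb from Fam168a and 6.31 kb from Arhgef17, which codes for a receptor of the tumor necrosis factor receptor superfamily. Relt was at 240, 279 and 214 CPM in Eµ-MTCP1 leukemias, 102, 58.8 and 90.5 CPM in Eµ-TCL1 leukemias and 33.5, 34.2 and 29.1 CPM in wildtype cells. The groups did not overlap, and Eµ-MTCP1 was 2.92-fold higher, but the adjusted threshold was missed (log2 fold change -1.54 ± 0.22, edgeR adjusted p = 0.078).

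Fam168a itself gave a value that differed between the deposited tables. On coding sequences it was at 3.36, 5.28 and 6.92 CPM in Eµ-TCL1 and 3.14, 2.56 and 10.2 CPM in Eµ-MTCP1 leukemias (log2 fold change -0.03). On the standard reference, which holds untranslated parts too, it was at 32.7, 28.7 and 33.1 CPM against 90.8, 105 and 144 CPM, with wildtype at 18.7, 18.6 and 18.9 CPM (log2 fold change -1.85, edgeR adjusted p = 0.0128). All Eµ-MTCP1 mice were above all others in that table. In the gene count table Fam168a was at 39.1, 34.8 and 37.1 CPM against 52.8, 51.0 and 98.1 CPM, a smaller difference that missed the adjusted threshold (log2 fold change -0.86, edgeR adjusted p = 0.587). Mouse Mtcp1, which was not tested on coding sequences, was at 1.06, 0.997 and 1.79 CPM against 109, 284 and 238 CPM on the standard reference, which holds no human transcript (log2 fold change -7.35, edgeR adjusted p = 0.000338). In the gene count table mouse Mtcp1 was at 1.22, 1.13 and 2.02 CPM against 2.85, 10.9 and 7.27 CPM (log2 fold change -2.27, edgeR adjusted p = 0.55). On coding sequences, whose reference holds human MTCP1, the mouse family was summed with Mtcp1 and Cmc4 included. It came to 1.68, 1.72 and 1.245 CPM in Eµ-TCL1 against 1.32, 2.70 and 2.30 CPM in Eµ-MTCP1 leukemias. How many of the mouse Mtcp1 reads on the standard reference or in the gene count table came from the human transgene was not tested. Of 24 genes tested within 1 Mb of Fam168a, Relt and Arhgef17 were called lower and none higher in Eµ-TCL1. Within 2 Mb the same 2 of 49 genes were called, and within 5 Mb 5 of 85 were called higher and 4 lower, against 3.24% higher and 3.16% lower of all genes.

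Neto2 (ENSMUSG00000036902, chr8:85636588-85700924, minus strand, GRCm38), which codes for an auxiliary subunit of kainate-type glutamate receptors, was the mouse gene with the reverse pattern. It was at 19.9, 41.4 and 48.8 CPM in Eµ-TCL1 leukemias, 0, 0 and 0.328 CPM in Eµ-MTCP1 leukemias and 0, 0 and 0.62 CPM in wildtype cells. Only Eµ-TCL1 mice expressed it above the floor, apart from 0.62 CPM in wildtype Z2754, at least 77.9-fold more than Eµ-MTCP1 mice (log2 fold change 8.23 ± 1.03, edgeR adjusted p = 0.0262). The call was less steady than that of Arhgef17: 12 of 21 alternatives kept the adjusted p under 0.05, and limma-voom gave 0.331, the highest. Without B4437, B4376 or any single Eµ-MTCP1 mouse the adjusted p of Neto2 was 0.0957 to 0.127. The log2 fold change stayed between 7.66 and 11.09. Where human TCL1A is inserted is not given in the sources used here.

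Neighbours of Neto2 were called in both directions. Of 37 genes tested within 1 Mb, 3 were called higher (Nfix, Neto2, Phkb) and 2 lower (Gadd45gip1, Gcdh), against 3.24% and 3.16% of all genes, and the groups did not overlap for 5 with Eµ-TCL1 above and 2 below, against 5.40% and 5.63%. The next gene, Itfg1, 16.7 kb away, was at 90.9, 79.7 and 100 CPM against 56.1, 79.3 and 66.6 CPM (log2 fold change 0.42 ± 0.24, edgeR adjusted p = 0.816). Phkb, a regulatory subunit of phosphorylase kinase, lay 140 kb away and was at 50.4, 30.9 and 118 CPM against 19.8, 28.1 and 22.1 CPM. All Eµ-TCL1 mice were above all Eµ-MTCP1 mice, B4376 by most (log2 fold change 1.5 ± 0.42, edgeR adjusted p = 0.533). Phkb was called in 20 of 21 alternatives, with a log2 fold change of 1.90 in the gene count table, 1.94 on the standard reference and 0.04 with transcript length offsets. Gadd45gip1, a mitochondrial ribosome component, was at 58.0, 30.1 and 20.6 CPM against 107, 89.2 and 104 CPM, with no overlap (log2 fold change -1.46 ± 0.34, edgeR adjusted p = 0.36). Within 2 Mb, 4 of 58 genes tested were called higher and 5 lower, against 3.24% and 3.16% of all genes. Among the 4 was Rln3, which codes for the neuropeptide relaxin 3. It was at 8.82, 2.46 and 5.53 CPM against 0, 0.284 and 0.328 CPM, at least 11.9-fold higher (edgeR adjusted p = 0.277).

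**Figure D2:**
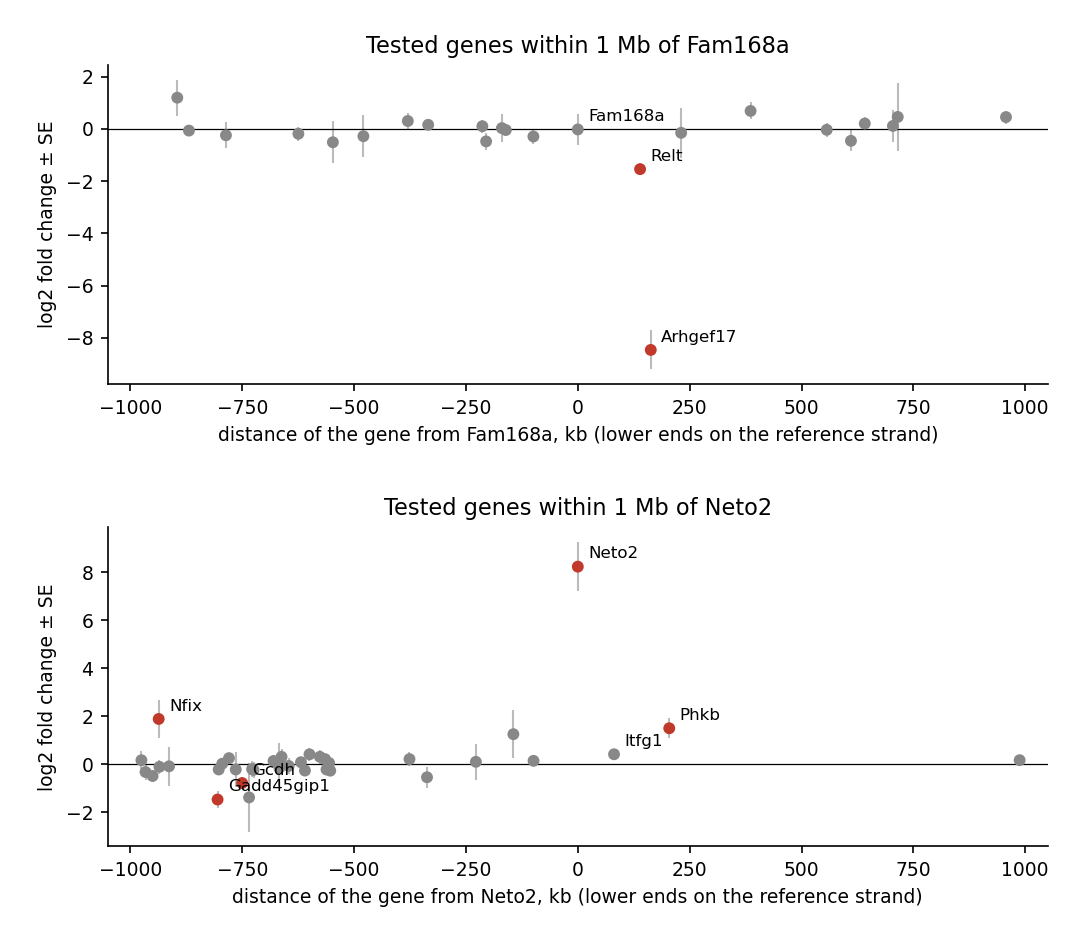
Log2 fold change (Eµ-TCL1 minus Eµ-MTCP1) with its SE for every tested gene within 1 Mb of Fam168a, the host gene of the MTCP1 transgene (upper), and of Neto2 (lower), against distance in kb. Red points are called at an unadjusted p under 0.05; Arhgef17 (-8.46) and Neto2 (8.23) lie farthest from 0 in their windows.

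Among the other genes with larger Eµ-MTCP1 levels, several were near zero in wildtype cells and present in both leukemias. Cyp11a1, the mitochondrial enzyme that starts steroid synthesis from cholesterol, was at 325, 260 and 142 CPM in Eµ-MTCP1 leukemias, 69.0, 61.6 and 54.1 CPM in Eµ-TCL1 leukemias and 1.51, 1.19 and 0.496 CPM in wildtype mice. The 3 groups did not overlap, and Eµ-MTCP1 exceeded Eµ-TCL1 by 3.94-fold (log2 fold change -1.98 ± 0.32, edgeR adjusted p = 0.134). Tns1, which codes for the focal adhesion protein tensin 1, was at 64.9, 78.8 and 47.6 CPM, 8.82, 8.10 and 9.27 CPM, and 0.755, 4.34 and 1.86 CPM in the same order of groups. It too had 3 separate levels (log2 fold change -2.87 ± 0.44, edgeR adjusted p = 0.115). Igsf21, a synaptic adhesion protein gene, was at 19, 33.4 and 28.1 CPM against 6.30, 3.07 and 4.29 CPM, with no read in wildtype mice (log2 fold change -2.56 ± 0.40, edgeR adjusted p = 0.189). Timp2, a metalloproteinase inhibitor, was at 11.9, 21.9 and 9.85 CPM against 3.78, 2.46 and 2.35 CPM (edgeR adjusted p = 0.245). Slc15a2, a peptide transporter, was at 8.26, 11.8 and 18.4 CPM against 0.70, 0 and 1.80 CPM (edgeR adjusted p = 0.346). Each of these kept Eµ-MTCP1 above Eµ-TCL1 in every mouse.

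Not all genes higher in Eµ-MTCP1 were raised over wildtype. Rapgef4, an exchange factor for Rap GTPases that responds to cyclic AMP, was at 13.1, 12.8 and 13.4 CPM against 2.10, 1.35 and 5.81 CPM, below the 17.8 to 20.3 CPM of wildtype cells. St6galnac3, a sialyltransferase gene, was at 19.5, 3.83 and 7.22 CPM against 1.4, 1.47 and 0 CPM. Camkk1, a kinase that acts on calmodulin-dependent kinases, was at 13.5, 7.96 and 4.76 CPM against 2.38, 2.58 and 1.38 CPM. None of these passed the adjusted threshold, with edgeR adjusted p values of 0.346, 0.514 and 0.419. Gm3839 had a log2 fold change of -3.25 on coding sequences but -0.95 on the standard reference, and its level therefore depended on the reference.

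Among genes with larger Eµ-TCL1 levels, Il12a codes for the p35 subunit of interleukin 12 and interleukin 35. It was at 40.3, 8.35 and 75.2 CPM in Eµ-TCL1, 3.30, 2.98 and 3.61 CPM in Eµ-MTCP1 and 18.6, 17.6 and 24.8 CPM in wildtype mice. Eµ-MTCP1 mice were thus below both other groups except that Eµ-TCL1 mouse B4437 came closest to them (log2 fold change 3.64 ± 0.65, edgeR adjusted p = 0.189). Adm, the gene of the vasoactive peptide adrenomedullin, was at 442, 155 and 63.1 CPM against 7.76, 59.9 and 22.1 CPM, and B4376 and Z2606 lay almost side by side (log2 fold change 2.87 ± 0.78, edgeR adjusted p = 0.514). Anxa4, a calcium-dependent membrane-binding protein gene, was at 43.0, 14.5 and 46.3 CPM against 1.98, 7.81 and 7.55 CPM (edgeR adjusted p = 0.277). Kifc3, a kinesin motor gene, was at 60.5, 38.3 and 5.53 CPM against 0, 4.55 and 4.10 CPM, and C1594 and B4437 carried most of its difference. Tiam2, an exchange factor for Rac, was at 16.2, 5.65 and 5.12 CPM against 0.165, 2.13 and 1.31 CPM (edgeR adjusted p = 0.486). Arhgef18 had a log2 fold change of 9.44 on coding sequences but -0.16 on the standard reference and -0.23 in the gene count table, and no direction is drawn from it.

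Several further low-level genes had been picked by the study on these same samples, so their direction here is no independent evidence. Ly6i, a lymphocyte surface antigen, was at 1.12, 2.82 and 14.1 CPM against 0.165, 0.142 and 0 CPM. Map3k20, a stress-activated kinase gene, was at 5.18, 5.28 and 3.60 CPM against 0.330, 0.568 and 1.48 CPM. In the other direction, Lrp5, a Wnt co-receptor, was at 0, 0.123 and 0 CPM against 0.661, 1.56 and 2.46 CPM. Each of these genes was close to the floor of 3 reads in one group. Cd34, a sialomucin of progenitors and endothelium, was at 0 CPM in all Eµ-TCL1 mice against 3.30, 0.710 and 0.492 CPM. Ccr10, a chemokine receptor, was also at 0 CPM there against 0.991, 4.12 and 0.164 CPM. Ptgs1, which codes for cyclooxygenase 1, was at 0.560, 0.123 and 0 CPM against 4.62, 3.83 and 3.45 CPM, and its groups did not overlap. The study also picked Hspa1a, Hspa1b, Il12a, Adm, Eef2k, Ddx60, Trim6 and Pmaip1 on these same samples. Their direction is no independent evidence either, nor is the part of any gene the study names in the list counts below.

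Heat shock genes stood higher in Eµ-TCL1 leukemias. Heat shock proteins are chaperones that refold damaged proteins, and heat shock factor 1 raises their transcription through repeated elements in their promoters. Of 30 genes listed, 28 were tested, 10 were called higher in Eµ-TCL1 and none lower, against 3.24% and 3.16% of all genes. In 11 genes all Eµ-TCL1 mice were above all Eµ-MTCP1 mice and in none below, against 5.40% and 5.63% of all genes. The median log2 fold change of the list was 0.38, beside -0.002 for all genes, and 8 to 13 genes were called higher and none lower in each of the 21 alternatives. No member passed the adjusted threshold. Per mouse, the median heat shock gene stood at log2 ratios to wildtype of 0.16, 0.35 and 0.19 in Eµ-TCL1. In Eµ-MTCP1 it stood at -0.72, -0.03 and -0.23, lowest in Z2641.

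Hsph1 (HSP105, an exchange factor for HSP70) was at 66.4, 62.5 and 110 CPM in Eµ-TCL1, 16.7, 25.1 and 24.3 CPM in Eµ-MTCP1 and 33.2, 60.4 and 39.8 CPM in wildtype mice (log2 fold change 1.85 ± 0.31, edgeR adjusted p = 0.139). Eµ-TCL1 mice were above both other groups and Eµ-MTCP1 mice below both. Hspa1b, an inducible HSP70, was at 684, 291 and 1445 CPM against 3.14, 22.9 and 17.4 CPM, with wildtype at 18.4, 139 and 9.79 CPM (log2 fold change 5.79 ± 1.16, edgeR adjusted p = 0.245). Its near-identical neighbour Hspa1a was at 420, 238 and 783 CPM against 3.47, 43.0 and 25.9 CPM (log2 fold change 4.31 ± 0.93, edgeR adjusted p = 0.325). Reads may be split between the pair, and the model gene Gm20481, which overlaps Hspa1a, was at 34.7, 21.5 and 80.8 CPM against 0.165, 2.84 and 2.46 CPM. B4376 was highest and Z2641 lowest for all 3. Bag3, a co-chaperone of HSP70, was at 28.0, 19.2 and 24.6 CPM against 11.1, 7.24 and 5.42 CPM (edgeR adjusted p = 0.379).

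Hsp90aa1, the inducible cytosolic HSP90, was at 1235, 1280 and 886 CPM against 518, 736 and 684 CPM (log2 fold change 0.81 ± 0.24, edgeR adjusted p = 0.595). Hspa8, the constitutive HSC70, was at 4383, 4940 and 6336 CPM against 2945, 3362 and 3788 CPM (log2 fold change 0.63 ± 0.22, edgeR adjusted p = 0.683). Neither pair of groups overlapped. Hsp90ab1 was at 4362, 4050 and 4212 CPM against 3559, 2650 and 3084 CPM, with wildtype lower still at 1900 to 2095 CPM. Dnaja4, an HSP40, was at 5.04, 3.93 and 5.81 CPM against 0.165, 1.56 and 1.48 CPM. Hspb1 and Dnajb1 were called with overlap between the groups: Hspb1 was at 331, 13.3 and 29.5 CPM against 1.16, 21.7 and 1.64 CPM, and most of its difference lay in C1594. The regulator Hsf1 was at 136, 124 and 97.7 CPM against 110, 117 and 129 CPM (log2 fold change 0.01 ± 0.19), and the mitochondrial chaperonin genes Hspd1 and Hspe1 had log2 fold changes of 0.22 and 0.20. Of 25 endoplasmic reticulum stress genes none was called higher and 1 lower (Atf6, log2 fold change -0.45), against 3.24% and 3.16% of all genes. Hspa5, the main chaperone of that compartment, was at 2248, 1660 and 2038 CPM against 765, 1838 and 1364 CPM, with overlap. Of 33 immediate early genes 1 was called higher, against 3.24% of all genes (Dusp1, at 571, 414 and 1686 CPM against 166, 540 and 326 CPM).

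**Figure D3:**
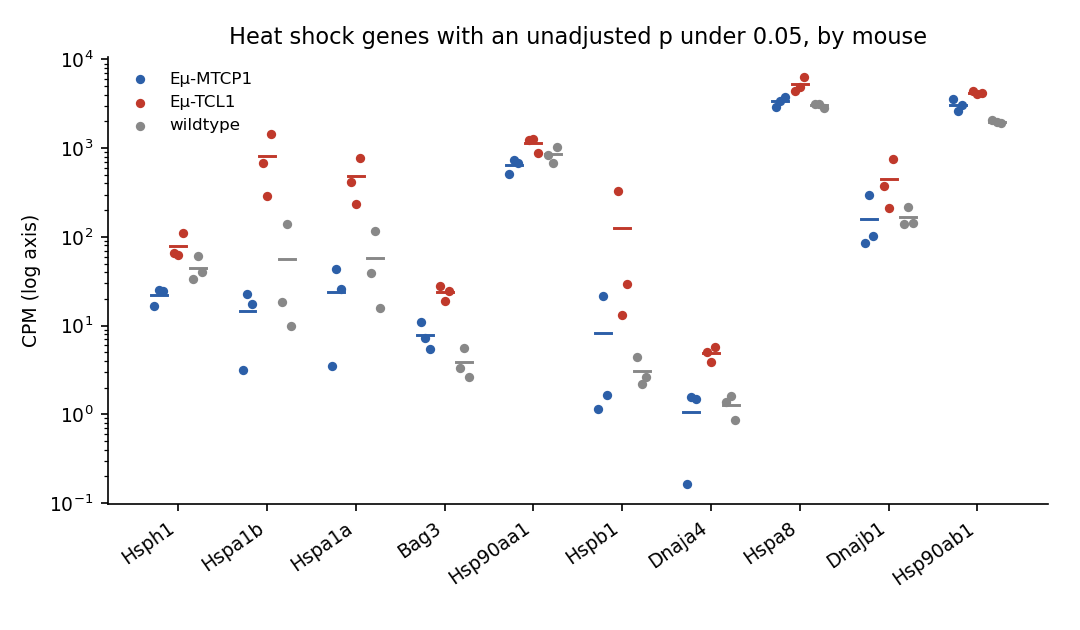
CPM on a log axis for the 10 heat shock genes called higher in Eµ-TCL1, with one point per mouse and a bar at the group mean. For Hspa1b all Eµ-TCL1 mice lie between 291 and 1445 CPM and all Eµ-MTCP1 mice between 3.14 and 22.9 CPM, while Hspb1 and Dnajb1 overlap.

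The promoter of Hsph1 is shown because, of the 7 called heat shock genes with a promoter window, Hsph1 was the 1 that held the searched element. The window runs from 250 bases before to 50 bases after a RefSeq start, at chr5:149636287-149636586 on the minus strand of GRCm38.p6. Capitals mark a match to the heat shock element, made of 3 units, GAA and TTC in turn, with any 2 bases between units. Both strands were searched, and overlapping matches were allowed.
Hsph1: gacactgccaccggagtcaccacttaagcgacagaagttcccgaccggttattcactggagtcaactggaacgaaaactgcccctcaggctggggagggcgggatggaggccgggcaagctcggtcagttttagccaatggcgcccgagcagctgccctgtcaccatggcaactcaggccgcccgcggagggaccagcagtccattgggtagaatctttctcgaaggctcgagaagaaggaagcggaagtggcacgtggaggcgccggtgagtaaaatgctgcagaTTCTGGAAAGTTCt
The element starts 36 bases after this start site. It was found in 4 of 24 heat shock genes with a window and in 1 of 7 called ones, against 0.662% of 27025 genes. A match is no evidence that a factor bound there.

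Type I interferon response genes were also mostly higher in Eµ-TCL1, though largely through 1 mouse. These genes are switched on when interferon binds its receptor, and they code for antiviral proteins. Of 49 listed, 48 were tested, 20 were called higher in Eµ-TCL1 and none lower, against 3.24% and 3.16% of all genes. In 12 all Eµ-TCL1 mice were above all Eµ-MTCP1 mice, as in 5.40% of all genes, and none passed the adjusted threshold. The median log2 fold change was 1.08. Without B4376, 5 were called higher and 1 lower, and the median was 0.35; without C1594, 28 were called higher. Per mouse, the median gene stood at log2 ratios to wildtype of -0.84, -0.42 and 0.59 in Eµ-TCL1 and -0.97, -0.70 and -0.84 in Eµ-MTCP1. Only B4376 was above wildtype, and C1594 was at the level of Eµ-MTCP1 mouse Z2551. B4376 also had the highest NK, T cell and macrophage marker sums of the leukemias (134, 191 and 1417 CPM), whose part in these values was not tested. With limma-voom 10 were called higher and none lower.

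Some members held in every mouse. Bst2, which codes for tetherin and keeps budding virions at the cell surface, was at 56.0, 47.9 and 78.3 CPM in Eµ-TCL1, 24.8, 28.1 and 25.1 CPM in Eµ-MTCP1 and 49.2, 35.2 and 26.4 CPM in wildtype mice (log2 fold change 1.22 ± 0.27, edgeR adjusted p = 0.325). Ifih1, the RNA sensor MDA5, was at 7.42, 7.49 and 14.9 CPM against 2.97, 3.83 and 3.12 CPM (log2 fold change 1.58 ± 0.46, edgeR adjusted p = 0.567). For both genes C1594 and B4437 also lay above every Eµ-MTCP1 mouse. Oasl1, a translational regulator, was at 2.66, 10.9 and 9.41 CPM against 0.165, 1.28 and 1.64 CPM, both below the 18.2 to 20.3 CPM of wildtype cells. Oasl2 was at 5.74, 5.89 and 28.1 CPM against 0.661, 3.27 and 2.13 CPM, and Ddx60, a helicase gene, at 2.10, 2.21 and 11.8 CPM against 0, 1.28 and 0.328 CPM. Others rested on 1 or 2 mice. Usp18, which removes ISG15 from proteins, was at 1.54, 12.5 and 18.1 CPM against 0.991, 1.14 and 1.80 CPM, and Gbp2, an interferon-induced GTPase, at 34.4, 28.5 and 189 CPM against 15.5, 31.2 and 29.2 CPM. Isg15 itself gave a log2 fold change of 0.01 ± 0.48. In the TRIM cluster of chromosome 7, 3 of 13 genes were called higher and none lower, against 3.24% and 3.16% of all genes; Trim30a was at 47.3, 43.1 and 58.5 CPM against 31.5, 31.5 and 36.1 CPM.

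The promoters of Bst2 and Ddx60 are shown because both genes were higher in all Eµ-TCL1 mice and hold the interferon element. Both windows are of GRCm38.p6, by RefSeq, from 250 bases before to 50 after a start, at chr8:71537423-71537722 (minus strand) and chr8:61927837-61928136 (plus strand). Capitals mark the core of the interferon-stimulated response element, made of 2 GAAA units, or TTTC units on the other strand, with any 2 bases between them, and overlapping matches were allowed.
Bst2: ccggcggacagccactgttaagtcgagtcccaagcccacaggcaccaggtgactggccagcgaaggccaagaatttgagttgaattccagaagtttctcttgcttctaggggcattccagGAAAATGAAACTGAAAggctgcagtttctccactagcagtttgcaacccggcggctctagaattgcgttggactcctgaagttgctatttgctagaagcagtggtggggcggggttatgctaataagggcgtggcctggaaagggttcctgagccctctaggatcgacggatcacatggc
Ddx60: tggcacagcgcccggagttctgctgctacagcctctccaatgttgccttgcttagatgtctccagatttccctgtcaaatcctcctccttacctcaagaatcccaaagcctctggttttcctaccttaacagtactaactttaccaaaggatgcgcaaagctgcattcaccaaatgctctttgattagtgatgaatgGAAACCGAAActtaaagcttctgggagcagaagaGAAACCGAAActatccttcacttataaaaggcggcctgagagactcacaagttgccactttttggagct
Each window holds 2 matches, which overlap in Bst2 and are apart in Ddx60. Of 35 interferon genes with a window, 21 held the core, as did 12 of 18 called ones, against 3.99% of all genes and 0 of 24 heat shock genes.

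NF-kappaB pathway genes were called in both directions. NF-kappaB factors are held in the cytoplasm by inhibitors and are released by signals from B cell and tumor necrosis factor family receptors. All 40 listed genes were tested, 9 were called higher in Eµ-TCL1 and 3 lower (Relt, Tnfrsf13c, Bcl3), against 3.24% and 3.16% of all genes, none passed the adjusted threshold, and the median log2 fold change was 0.12. Without Z2641 the counts were 2 and 1, without C1594 they were 4 and 1, and without B4376 5 and 3. Nfkb2, the p100 subunit, was at 427, 110 and 298 CPM against 84.6, 83.1 and 105 CPM, with wildtype at 285 to 330 CPM (log2 fold change 1.61 ± 0.39, edgeR adjusted p = 0.382). Tnfaip3, the inhibitor A20, was at 124, 150 and 123 CPM against 24.9, 89.1 and 63.7 CPM, below wildtype in every leukemia. In these 2 genes the groups did not overlap, though B4437 was close to Eµ-MTCP1 for Nfkb2. The inhibitors Nfkbib and Nfkbie were at 242, 158 and 152 CPM against 106, 124 and 131 CPM, and at 89.2, 56.7 and 97.7 CPM against 31.2, 39.8 and 67.4 CPM. Tnfrsf13c, the receptor for BAFF, was at 118, 192 and 114 CPM against 292, 160 and 242 CPM, and Bcl3 at 37.5, 40.4 and 93.9 CPM against 175, 58.2 and 103 CPM. Both overlapped between the groups.

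**Figure D4:**
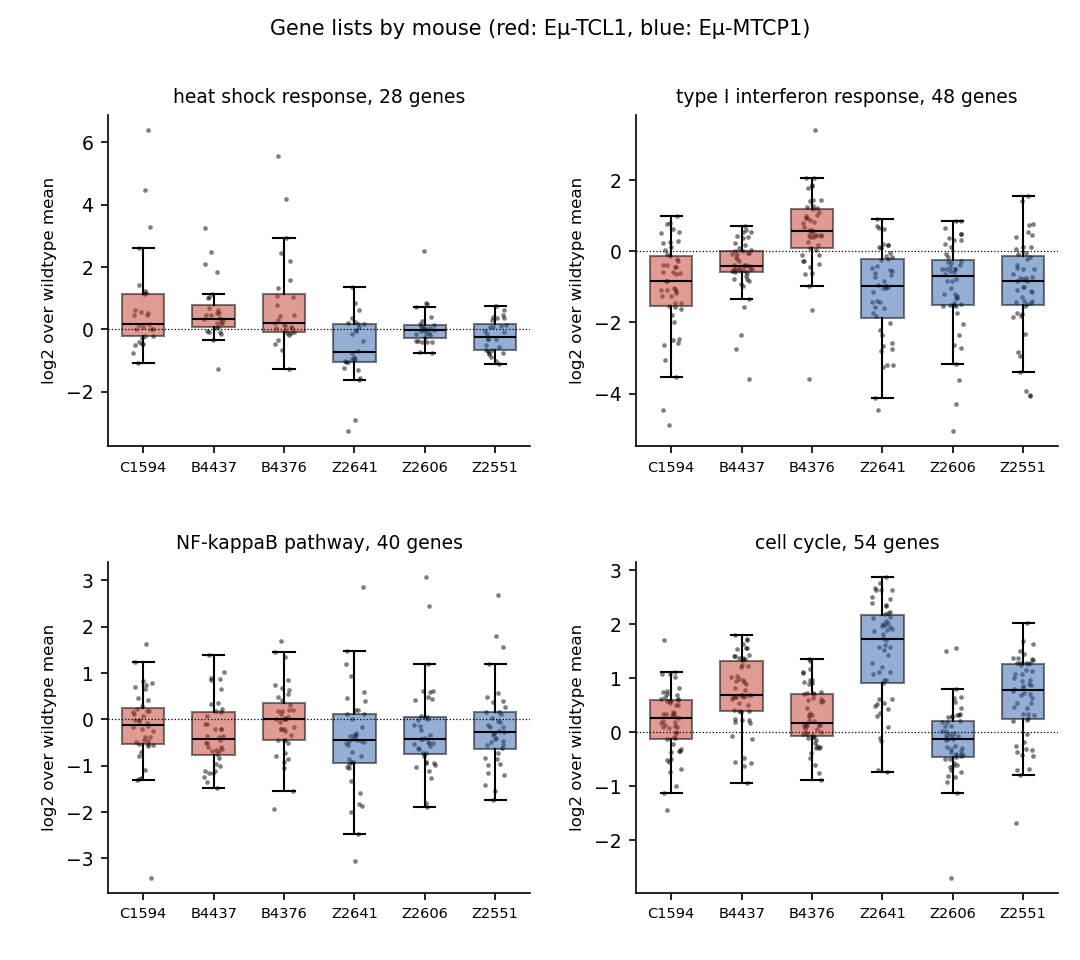
Log2 ratio of each gene to its wildtype mean in each leukemia for 4 gene lists (log2 of CPM + 1), with one point per gene, a box from the lower to the upper quartile, a line at the median and whiskers to the last gene within 1.5 box lengths. Mouse B4376 stands above the other leukemias for interferon genes (median 0.59), and Z2641 for cell cycle genes (median 1.72).

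AKT and B cell receptor genes, of the pathways where both transgenes act, gave 3 calls, to be read against 3.24% of all genes called higher and 3.16% lower. Of 45 tested genes of the PI3K, AKT and mTOR pathway 1 was called higher and 1 lower. Eef2k, the kinase that inhibits elongation factor 2, was at 33.9, 39.3 and 15.6 CPM against 3.80, 12.1 and 4.92 CPM (log2 fold change 2.08 ± 0.49, edgeR adjusted p = 0.36), with no overlap. Deptor, an inhibitor of mTOR, was at 1.12, 1.72 and 0.692 CPM against 2.48, 3.69 and 4.43 CPM. Akt1 was at 40.3, 29.4 and 39.8 CPM against 47.7, 31.7 and 33.0 CPM (log2 fold change -0.04 ± 0.25). Of 42 B cell receptor genes tested 1 was called lower, Bank1, a scaffold of that receptor, at 355, 333 and 327 CPM against 605, 446 and 498 CPM. Of 14 genes of B1 cells 1 was called lower, against 3.16% of all genes, the transcription factor gene Bhlhe41, at 15.8, 14.5 and 20.6 CPM against 24.6, 33.1 and 53.2 CPM, both over the 2.57 to 7.49 CPM of wildtype. Cd5, the surface marker of these leukemias, was at 30.5, 83.4 and 34.0 CPM against 47.4, 23.9 and 38.9 CPM, with overlap, and at 0.743 to 4.83 CPM in wildtype cells. Of 18 follicular and marginal zone genes 1 was called lower, against the same share: Fcer2a, which codes for CD23, was at 2.10, 4.67 and 4.57 CPM against 5.78, 15.1 and 8.20 CPM, both far under the 293 to 414 CPM of wildtype. None of 13 plasma cell genes was called.

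Receptors for chemokines, sphingosine 1-phosphate and cytokines guide lymphocytes through tissue. Of 39 tested, 2 were called higher and 4 lower, against 3.24% and 3.16% of all genes. Il2rg, the common gamma chain, was at 735, 422 and 698 CPM against 224, 303 and 338 CPM (log2 fold change 1.10 ± 0.26, edgeR adjusted p = 0.36), and Ackr3, a scavenging receptor of CXCL12, was at 53.1, 11.2 and 33.3 CPM against 3.63, 0.568 and 16.1 CPM. Il2rg separated the groups and Ackr3 did not. Ccr1 was at 26.6, 20.6 and 15.1 CPM against 26.9, 50.6 and 54.1 CPM, where C1594 and Z2641 nearly met. S1pr4 was at 56.6, 43.6 and 46.5 CPM against 80.4, 63.8 and 89.9 CPM; P2rx7, an ATP-gated channel, had a log2 fold change of -0.99 ± 0.36. Of 25 chemokines and cytokines tested 2 were called higher, Il12a and Ccl4, against 3.24% of all genes.

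Among the metabolic and ribosomal groups, only hypoxia and glycolysis genes gave calls. Of 32 hypoxia and glycolysis genes tested 5 were called higher and none lower, against 3.24% and 3.16% of all genes, with a median log2 fold change of 0.11 that was 0.018 without C1594 and 0.024 without Z2641. Besides Adm these were Pfkp, Pdk1, Ero1l and Slc2a3; Pdk1, which restrains pyruvate entry to mitochondria, was at 14.4, 26.9 and 16.2 CPM against 7.27, 10.8 and 13.6 CPM, and Pfkp, a phosphofructokinase, at 133, 104 and 114 CPM against 92.3, 67.2 and 86.1 CPM. None of 80 ribosomal protein genes, 89 nuclear genes of oxidative phosphorylation or 13 mitochondrial ones was called, with median log2 fold changes of -0.28, -0.08 and -0.46. Median log2 levels over wildtype of the mitochondrial genes were -0.70, -0.36 and -0.61 in Eµ-TCL1 mice and 0.68, -0.48 and -0.31 in Eµ-MTCP1 mice, and Z2641 was also highest for ribosomal protein genes (0.86, others -0.0021 to 0.54). Of 24 p53 targets 3 were called higher (Fas, Cdkn1a, Pmaip1), against 3.24% of all genes. Of 16 genes of MHC class I presentation 1 was called, Tapbp, at 374, 309 and 435 CPM against 251, 263 and 272 CPM, and all 16 had a positive log2 fold change (median 0.51). Their median log2 levels over wildtype were 0.13, 0.38 and 0.90 in Eµ-TCL1 mice and -0.05, -0.34 and 0.17 in Eµ-MTCP1 mice, so the groups overlapped, and B4376, the mouse with the highest NK and T cell marker sums, was highest. The part of those cells in this difference was not tested. Among 14 of MHC class II 1 was called in each direction. Of 39 stress and MAP kinase genes tested 3 were called higher and 1 lower, of 17 BCL2 family genes 1 higher, and of 19 Wnt pathway genes 1 in each direction. These counts and those of MHC class I and II are to be read against 3.24% of all genes called higher and 3.16% lower.

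Cell cycle genes differed more among Eµ-MTCP1 mice than between the groups. Of 54 tested, Cdkn1a was called higher and Cdkn2d lower, against 3.24% and 3.16% of all genes, and the median log2 fold change was -0.47. Relative to wildtype, the median gene stood at 0.27, 0.69 and 0.18 (log2) in Eµ-TCL1 and at 1.72, -0.12 and 0.78 in Eµ-MTCP1. Without Z2641 the median difference was 0.08, and without Z2606 it was -0.84 with 1 gene called higher and 24 lower, where 574 of all genes were called higher and 502 lower. Mki67, the proliferation marker, was at 175, 222 and 185 CPM against 515, 112 and 200 CPM, and its log2 fold change of -0.51 was 0.31 without Z2641. Z2641 was also the mouse with the highest neutrophil and erythroid marker sums (2783 and 330 CPM), whose part in this value was not tested. Markers of other cells were called in both directions, to be read against 3.24% of all genes called higher and 3.16% lower. Of 10 neutrophil genes tested 2 were called lower, Elane and Mpo, both through Z2641 (327 and 937 CPM, other leukemias at most 17.2 and 65.5 CPM). Of 15 macrophage genes 1 was called in each direction, of 8 T cell genes 1 was called higher (Trbc2), of 7 erythroid genes 1 was called lower (Hbb-bt, log2 fold change -2.42, and 0.26 without Z2641), and none of 6 NK or 5 dendritic cell genes was called.

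Chromosome medians showed a shift shared by both leukemias on chromosome 15, a separation of the groups on chromosome 17 and the widest gaps of single mice on chromosomes 7 and 12. The median chromosome 15 gene stood above wildtype by 0.585, 0.502 and 0.437 (log2 of CPM + 0.5) in Eµ-TCL1 and by 0.594, 0.539 and 0.613 in Eµ-MTCP1. All 6 leukemias were raised to a like extent, and the contrast between groups had a median log2 fold change of -0.10 over 437 genes, 10 called higher and 20 lower. On chromosome 12, B4376 stood at -0.445 and the other 5 leukemias at -0.147 to -0.0882. On chromosome 7, C1594 stood at 0.297 and the others at 0.0261 to 0.151. On chromosome 17 the Eµ-TCL1 mice stood at 0.249, 0.132 and 0.138 and the Eµ-MTCP1 mice at 0.0822, 0.0105 and 0.0938, and the groups stayed apart under all 7 alternatives for these medians. The groups were also apart on chromosomes 3 and 12, but overlapped there under 1 and 5 of the 7 alternatives. The alternatives reuse the same mice, and 20 chromosomes were compared. With 3 mice against 3, an exact two-sided permutation p cannot go below 0.1 on any of them. The separation on chromosome 17 is therefore given as a description. Medians of the other 16 chromosomes lay between -0.207 and 0.128 in every leukemia. Immunoglobulin genes were left out of the contrast by chromosome, and DNA copy number was not measured. The contrast on chromosome 12 had 6 genes called higher and 19 lower of 372, and that on chromosome 17 33 higher and 14 lower of 602, against 3.24% higher and 3.16% lower of all genes.

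**Figure D5:**
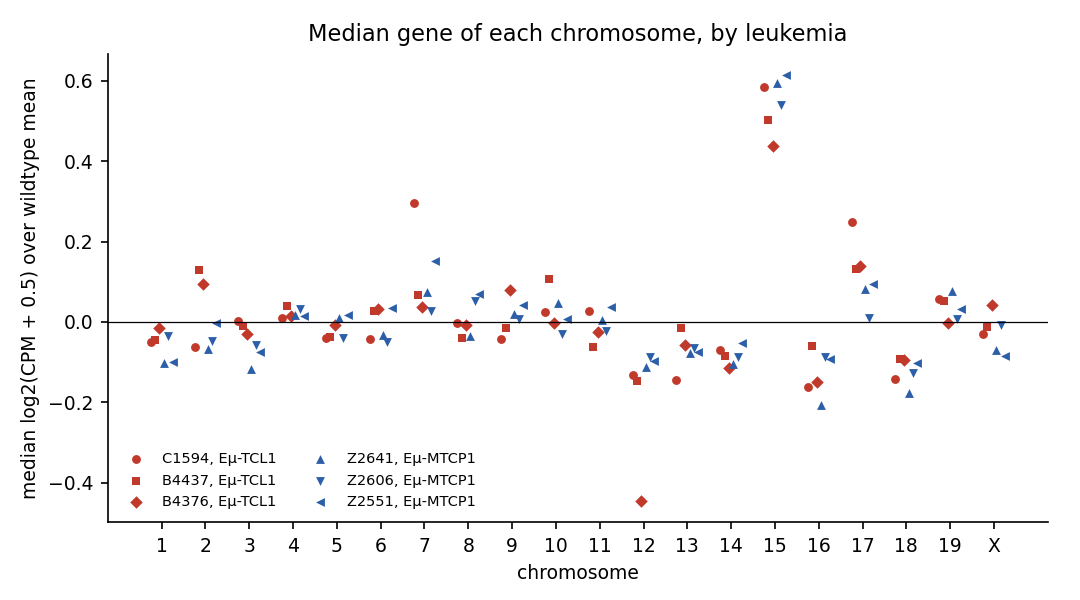
Median over the genes of each chromosome of log2(CPM + 0.5) less the wildtype mean, with one symbol per leukemia. All 6 leukemias lie between 0.437 and 0.613 on chromosome 15, B4376 lies at -0.445 on chromosome 12, C1594 lies at 0.297 on chromosome 7, and on chromosome 17 the Eµ-TCL1 mice lie above the Eµ-MTCP1 mice.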

How the data were processed

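Libraries of 9 mice, made from B cells of the spleen, were grouped by labelled genotype. The authors quantified transcripts with Salmon (version 1.0.0 in the submitters' processing notes) against a custom reference with the human transgenes. Their deposited estimated counts were added up by gene and rounded to whole numbers, and the deposited TPM values and effective lengths gave length offsets only. The custom reference is mostly coding sequence, since 87.26% of its lengths are multiples of 3. A second set of deposited estimated counts on a standard reference, and whole-number counts per gene that the authors made with featureCounts after alignment with HISAT2, served as alternatives. The authors' fold changes and p-values were not used. Gene names and positions came from GENCODE (GRCm38), and 442 mouse transcripts it lacks, 0.19% to 0.29% of reads, were left out.

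All 9 libraries entered 1 edgeR (4.0.16) quasi-likelihood fit, with TMM scaling, filterByExpr and 6 residual degrees of freedom, and the contrast was Eµ-TCL1 minus Eµ-MTCP1, two-sided. Fold bounds used a floor of 3 reads per library, and this floor covers counting error only, while SEs include the spread between mice. Alternatives were DESeq2 (1.42.0, the tool the authors used), limma-voom (limma 3.58.1), robust edgeR, other scalings and filters, only the 6 leukemias, length offsets, the other count tables, no immunoglobulin genes, and each library left out. Some genes are not reported here. Named genes were those past an adjusted p under 0.05, up to 12 largest changes in each direction at an unadjusted p under 0.05 with at least 5 CPM and no overlap, the Tcl1 family, Fam168a, Nnt, and genes within 1 Mb of Fam168a or Neto2, up to 4 genes per list by p, and genes the study names. Others named for their role were chosen after their values were seen. The members, rules and gene lists were chosen with earlier results of these data known. Replicates are separate mice.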

Additional observations from a re-analysis of the deposited data

Results flagged for a closer look

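A signal appeared outside the coding-sequence table. Gm3200, a processed pseudogene inside Fam168a, the host gene of the MTCP1 transgene, is absent from that table but present in the whole-number gene counts. There it was at 31.5, 97.8 and 74.6 CPM in Eµ-MTCP1 mice Z2641, Z2606 and Z2551, against 3.35, 3.73 and 3.02 CPM in Eµ-TCL1 mice and 2.09, 6.34 and 2.94 CPM in wildtype mice. The lowest Eµ-MTCP1 library (31.5 CPM) was above every control library. In an edgeR fit on that table the log2 fold change was -4.33 (adjusted p = 0.0178). Whether these reads arise from Fam168a or from the pseudogene was not tested.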

How the results depend on the processing

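The number of genes at an adjusted p under 0.05 was 4, and it was 10 with no expression filter, 71 with DESeq2 (38 higher and 33 lower, all 4 included), 7 on the standard reference (1 shared) and 4 to 7 when each library was left out in turn. The count at an unadjusted p under 0.05 ran from 662 to 1076 when a library was left out, with 1076 without Z2606. The count at an unadjusted p under 0.001 with a log2 fold change past 2 was 22, and it was 40 with no expression filter, 57 with DESeq2, 11 with limma-voom, 13 with only the 6 leukemia libraries and 15 to 34 when a library was left out. The log2 fold change of Fam168a was -0.03 and changed sign to 0.064 with library size alone, 0.23 with limma-voom and 0.042 with transcript length offsets. It ran from -0.36 (without Z2606) to 0.86 (without Z2551) when a library was left out, and was 0.21 without C1594. That of Arhgef18 changed sign to -0.23 in the gene count table and -0.16 on the standard reference. When a library was left out the sign also changed for Hbb-bt (-2.98 to 0.26, positive without Z2641), Mki67 (-0.88 to 0.31, positive without Z2641), Cd5 (-0.19 to 0.68, negative without B4437), Kdm5d (-0.28 to 3.39, negative without B4376), Hspe1 (-0.079 to 0.37, negative without B4437 or Z2606), Akt1 (-0.14 to 0.17, positive without B4437 or Z2641), Hsf1 (-0.096 to 0.13, negative without C1594, B4437 or Z2641) and Isg15 (-0.69 to 0.34, negative without B4376, Z2641 or Z2606). It changed with limma-voom for Hsf1 (-0.0015) and Isg15 (-0.13), and for Akt1 with library size alone (0.057) and transcript length offsets (0.015). The other 89 of 99 tested genes named in the text kept their direction. Of 2048 alternative values for all 99, 1963 kept direction and side of the threshold, 25 changed sign, 50 newly passed the threshold and 10 no longer did: 9 of Neto2 and 1 of human MTCP1 (limma-voom, adjusted p = 0.053). Across the alternatives the chromosome 12 median of B4376 ran from -0.575 to -0.369, with C1594 at -0.316 and Z2641 at -0.365 under library size alone, and C1594 ran from 0.112 to 0.331 on chromosome 7 and from 0.0705 to 0.27 on chromosome 17. Why each value moved was not tested, beyond the fewer samples or genes that an alternative holds. No paired analysis was possible because each library is a separate mouse and the labels name no pairs. With 3 mice a group, depth of 6447542 to 8033303 reads and 6 residual degrees of freedom, a missed threshold does not show equal levels.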

Other observations

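A few genes separated the leukemias in tables other than the coding-sequence one, and are given as values only. In the gene count table Gm47283, annotated on the Y chromosome, was at 0, 0.087 and 0 CPM in Eµ-TCL1 mice C1594, B4437 and B4376, against 103, 123 and 71.3 CPM in Eµ-MTCP1 mice Z2641, Z2606 and Z2551 and 98.1, 54.8 and 22.9 CPM in wildtype mice (edgeR adjusted p = 7.54e-04). Gm21887, annotated on the X chromosome, was at 0 CPM in all Eµ-TCL1 mice against 66.6, 80.6 and 54.3 CPM (edgeR adjusted p = 0.00486), and wildtype mice had 77.9, 46.1 and 17.8 CPM. For this pair the Eµ-TCL1 mice were below both other groups. In both other groups the mouse with high Xist lay within or above the range of the rest.

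On the standard reference, Exosc6, a subunit of the RNA exosome, was at 0 CPM in all Eµ-TCL1 mice against 8.07, 8.44 and 18.9 CPM in Eµ-MTCP1 mice and 14.2, 37.9 and 24.8 CPM in wildtype mice, so the Eµ-TCL1 mice were again below both other groups (edgeR adjusted p = 0.0138). On coding sequences it had a log2 fold change of -1.0 with an edgeR adjusted p of 0.683, so the size of its difference depended on the reference. Gm4070, a chromosome 7 model gene, was at 8.84, 12.7 and 33.9 CPM against 0.258, 0.492 and 0.566 CPM on the standard reference (log2 fold change 5.37, edgeR adjusted p = 0.0129). Wildtype mice had 29.0, 30.5 and 43.1 CPM there, so the Eµ-MTCP1 mice were below both other groups. Its log2 fold change was 1.95 in the gene count table and 0.58 on coding sequences.

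Y-linked genes were uneven among the mice without Xist. In the gene count table Eif2s3y was at 25.7 and 55.3 CPM in Eµ-TCL1 mice B4437 and B4376, 4.22 and 29.6 CPM in Eµ-MTCP1 mice Z2606 and Z2551, and 56.8 and 68.9 CPM in wildtype mice Z2755 and Z2754. Ddx3y was at 13.9 and 35 CPM, 6.02 and 1.02 CPM, and 49.7 and 83.2 CPM in the same order. All 4 leukemias were below both wildtype mice for Eif2s3y and Ddx3y. This did not hold for the other Y-linked genes: Kdm5d was at 38.2 CPM in B4376 against 27.1 and 35.4 CPM in wildtype mice, and Uty at 15.8 CPM against 9.48 and 18.2 CPM. In the gene count table neither of the first pair was called (edgeR adjusted p = 0.931 for Eif2s3y and 0.816 for Ddx3y).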
